A study of Psammomys obesus with 8 samples.

Results

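Captured methylated DNA was followed along the insulin receptor gene Insr, the insulin-like growth factor 1 receptor gene Igf1r and the genes of their main adaptor proteins, Irs1 and Irs2. The members were the contigs, stretches of assembled sand rat sequence, whose match to mouse lay inside 1 of these genes at a distance of 0. There were 60 of 548060 contigs, and 125082 contigs lay inside any gene. Insr held 14 contigs, Igf1r 35, Irs1 7 and Irs2 4.

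The study captured methylated DNA from hypothalami of males of *Psammomys obesus*, known as the fat sand rat, a gerbil of deserts in which rich diets bring on obesity and diabetes. MethylMiner, which pulls down double-stranded DNA through the methyl-CpG binding domain of the protein MBD2, was applied to 8 samples taken at 16 weeks of age. Groups differed in the diet of the parents (the father, by the design text) and held 4 libraries each. The low-low group carries the sample name Low-Low lipid and the diet entry Low lipid, and the standard-low group carries Standard-Low lipid and Standard Lipid. What each word of these names stands for is not spelled out, no genotype or drug is named for either group, and nothing says whether the numbered replicates were separate animals, so p-values cover the spread among these samples alone, and that spread may be technical. The tissue is a mixture of cell types, and a count of captured DNA reflects both methylation and the amount of the underlying sequence. No input libraries were used here.

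Insulin and insulin-like growth factors bind receptor tyrosine kinases at the cell surface, and the activated receptors phosphorylate the Irs proteins, which recruit phosphoinositide 3-kinase and so switch on Akt. In the hypothalamus this pathway takes part in the control of food intake, body weight and glucose output by the liver, and Irs2 in particular is known for its role in energy balance. Most of the coding sequence of Irs1, and likewise of Irs2, lies in a single large exon near the 5′ end of the gene, whereas the receptor genes are long and consist largely of introns.

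Totals over the contigs of the table were 12528388 to 13533441 counts in the low-low libraries and 11646180 to 12156525 in the standard-low libraries, with no overlap (two-sided exact permutation p = 0.0286, the smallest that 4 against 4 can give). Values below are CPM, counts brought to a common library total with TMM adjustment. Contigs with at least 4 CpG per 100 bases took 4.61, 5.16, 5.16 and 5.10% of the counts in low-low 1 to 4, against 4.54, 4.08, 5.24 and 4.24% in standard-low 1 to 4. The share was thus lowest in standard-low 2 and 4 and highest in standard-low 3, and its part in the results at CpG-dense contigs was not tested. Markers of neurons, oligodendrocytes, astrocytes, microglia and endothelium were read as summed captured counts for 26 of 32 genes, and none was called (edgeR adjusted p of at least 0.807). At an unadjusted p under 0.05 there were 3 of 26, against 6.03% of all gene sums. Tmem119 of microglia (0.682 times the low-low mean in standard-low) and Sox10 of oligodendrocytes (0.771 times) were lower, and Stmn2 of neurons (1.29 times) higher. The groups did not overlap for Tmem119 and Stmn2, against 3.48% of all gene sums. All 5 microglial and 5 of 6 oligodendrocyte genes had a log2 fold change below 0, with C1qa (-0.0063) and Aif1 (-0.022) of microglia close to it. So did 3 of 6 neuronal, 3 of 5 astrocyte and 1 of 4 endothelial genes, so Stmn2 does not stand for the neuronal list. Of the 26 genes 17 were below 0, against 58.6% of all gene sums. The part of these markers in the member values was not tested. Map2, Olig1, Olig2, Gfap, P2ry12 and Cldn5 had no contig inside. Summed CPM in low-low and standard-low libraries ranged from 279.6 to 287 and 265.5 to 298 for 6 neuronal genes, and from 81.0 to 87.6 and 84.5 to 87.9 for 5 astrocyte genes. It ranged from 78.5 to 82.0 and 61.7 to 84.4 for 6 oligodendrocyte genes, from 93.5 to 96.8 and 72.6 to 103.8 for 5 microglial genes, and from 127 to 132 and 128 to 136 for 4 endothelial genes. These genes give captured DNA rather than RNA, so they do not check the tissue.

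The sequences on which the results turn are given 5′ to 3′ in the direction of the contig, with each CpG in capitals, since the CpG is the unit that is methylated and captured. Longer contigs are shown as the 300-base window with the most CpG. Positions are those of the mouse match, on a mouse build not given in the sources used here, and a match can be shorter than the contig. The first 2 sequences come from the CpG-dense contigs of the Irs genes.
Irs1 contig 1344000: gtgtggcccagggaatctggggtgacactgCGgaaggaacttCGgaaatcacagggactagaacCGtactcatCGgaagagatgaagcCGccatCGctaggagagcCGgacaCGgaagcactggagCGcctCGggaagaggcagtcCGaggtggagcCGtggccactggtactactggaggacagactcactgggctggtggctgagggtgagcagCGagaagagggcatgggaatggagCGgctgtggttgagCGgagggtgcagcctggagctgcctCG
Irs2 contig 465280: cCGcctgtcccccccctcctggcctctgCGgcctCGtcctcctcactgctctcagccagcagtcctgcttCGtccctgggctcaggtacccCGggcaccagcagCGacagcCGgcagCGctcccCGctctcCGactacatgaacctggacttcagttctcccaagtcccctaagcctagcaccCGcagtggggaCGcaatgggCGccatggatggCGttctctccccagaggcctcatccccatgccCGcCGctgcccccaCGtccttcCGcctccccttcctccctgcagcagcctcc
Irs1 contig 1344000 is shown whole, with 281 bases and 16 CpG, and matched the plus strand at chr1:82289151-82289431. Irs2 contig 465280 is shown whole, with 299 bases and 18 CpG, and matched the minus strand at chr8:11005361-11005658. The next sequence holds the highest captured level per kilobase of all 60 contigs, 7.97 CPM per kb.
Igf1r contig 427646: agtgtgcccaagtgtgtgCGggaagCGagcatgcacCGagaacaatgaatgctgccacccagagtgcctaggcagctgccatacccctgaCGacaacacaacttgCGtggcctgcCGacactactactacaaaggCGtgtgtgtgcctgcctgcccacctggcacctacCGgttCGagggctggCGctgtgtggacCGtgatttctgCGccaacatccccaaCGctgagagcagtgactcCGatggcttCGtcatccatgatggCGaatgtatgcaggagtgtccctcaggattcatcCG
It is bases 118 to 417 of 463, with 17 CpG, and the contig matched the plus strand at chr7:68164918-68165336. The last pair shows the only contigs, 1 in each direction, at which the 4 libraries of 1 group all lay beyond those of the other group.
Insr contig 4089420: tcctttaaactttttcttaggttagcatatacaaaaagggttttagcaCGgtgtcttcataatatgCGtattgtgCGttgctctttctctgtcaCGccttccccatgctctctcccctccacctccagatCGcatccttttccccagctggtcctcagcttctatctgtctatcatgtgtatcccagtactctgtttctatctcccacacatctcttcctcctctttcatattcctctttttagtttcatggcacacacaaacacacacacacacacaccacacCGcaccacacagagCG
Irs1 contig 2260991: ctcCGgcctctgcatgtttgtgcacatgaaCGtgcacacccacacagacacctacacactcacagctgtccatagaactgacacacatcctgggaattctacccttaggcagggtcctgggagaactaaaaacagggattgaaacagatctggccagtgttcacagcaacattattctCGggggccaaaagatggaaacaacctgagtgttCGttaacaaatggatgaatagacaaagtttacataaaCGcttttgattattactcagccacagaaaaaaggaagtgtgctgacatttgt
The Insr window is bases 30 to 329 of 505, with 7 CpG, and the contig matched the plus strand at chr8:3271034-3271137. The Irs1 window is bases 1 to 300 of 491, with 5 CpG, and the contig matched the plus strand at chr1:82277466-82277497, where 32 bases were aligned. Against the Irs sequences of the first pair, this last pair is sparse in CpG.

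Summed over each gene, captured DNA did not pass the test between groups for any of the 4 members. Of 19098 genes tested this way, 0.00524% were called at an edgeR adjusted p under 0.05 and 6.03% had an unadjusted p under 0.05, and no member reached either level. The ratio of the standard-low to the low-low mean was 1.06 for Insr, 1.01 for Igf1r, 0.881 for Irs1 and 1.01 for Irs2.

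For Insr (ENSMUSG00000005534), the tyrosine kinase receptor of insulin, summed CPM was 21.1, 22.5, 23.6 and 22.3 in low-low 1 to 4, against 23.1, 23.7, 21.9 and 25.8 in standard-low 1 to 4, the order in which libraries are given throughout. The groups overlapped, with standard-low 4 the highest and low-low 1 the lowest. Means were 22.4 ± 1.03 in low-low against 23.6 ± 1.63 in standard-low (SD, n = 4), from 2283 counts. The log2 fold change of standard-low over low-low was 0.079 ± 0.080 (SE; 95% interval -0.089 to 0.25; edgeR adjusted p = 0.878). The interval allows a standard-low level from 0.940 to 1.19 times that of low-low.

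For Igf1r (ENSMUSG00000005533), the receptor of insulin-like growth factor 1, summed CPM was 78.6, 79.7, 75.4 and 75.0 in low-low against 77.0, 77.9, 81.3 and 75.4 in standard-low. The groups overlapped over nearly their whole range. Means were 77.2 ± 2.33 and 77.9 ± 2.50 (SD, n = 4), from 7715 counts, the most of the 4 genes. The log2 fold change was 0.013 ± 0.052 (edgeR adjusted p = 0.976), and its 95% interval allows 0.936 to 1.09 times the low-low level.

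For Irs1 (ENSMUSG00000055980), an adaptor that carries the signal of both receptors, summed CPM was 11.8, 12.8, 11.9 and 11.4 in low-low against 10.9, 10.4, 10.9 and 9.97 in standard-low. Every standard-low library lay below every low-low library, and Irs1 was the only member with groups that did not overlap. Among all gene sums, 3.48% had groups that did not overlap and 2.08% did so with standard-low below. Means were 11.97 ± 0.572 and 10.5 ± 0.454 (SD, n = 4), the low-low mean being 1.14 times that of standard-low. The log2 fold change was -0.18 ± 0.10 (SE; 95% interval -0.39 to 0.023; edgeR adjusted p = 0.807). Of all gene sums, 9.80% had a lower p. The separation depended on contig 2260991, placed in Irs1 by 32 aligned bases. Over the 6 contigs with matches of at least 100 bits, which leave it out, standard-low 1 lay above low-low 1. The log2 fold change was then -0.11 (edgeR adjusted p = 0.871).

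For Irs2 (ENSMUSG00000038894), the second adaptor, summed CPM was 5.35, 6.69, 5.70 and 5.68 in low-low against 6.50, 6.49, 5.47 and 5.07 in standard-low. The groups overlapped. Means were 5.85 ± 0.578 and 5.88 ± 0.728 (SD, n = 4), and the log2 fold change was 0.0058 ± 0.14 (edgeR adjusted p = 0.998). With 584 counts in all, the 95% interval allows 0.823 to 1.22 times the low-low level, the widest of the 4.

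Per kilobase of contig, a scale on which genes can be compared, the mean level over the 8 libraries was 3.57 ± 0.105 CPM per kb for Igf1r (SD, n = 8), 3.40 ± 0.272 for Irs1, 2.97 ± 0.184 for Insr and 2.39 ± 0.248 for Irs2. Library values of Igf1r, 3.45 to 3.74, fell within those of Irs1, 3.01 to 3.86. Those of Irs1 overlapped with those of Insr, 2.72 to 3.33, and Irs2 lay lowest at 2.06 to 2.72. All 4 genes were measured in the same libraries, and only contigs of the table enter these levels.

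**Figure D1:**
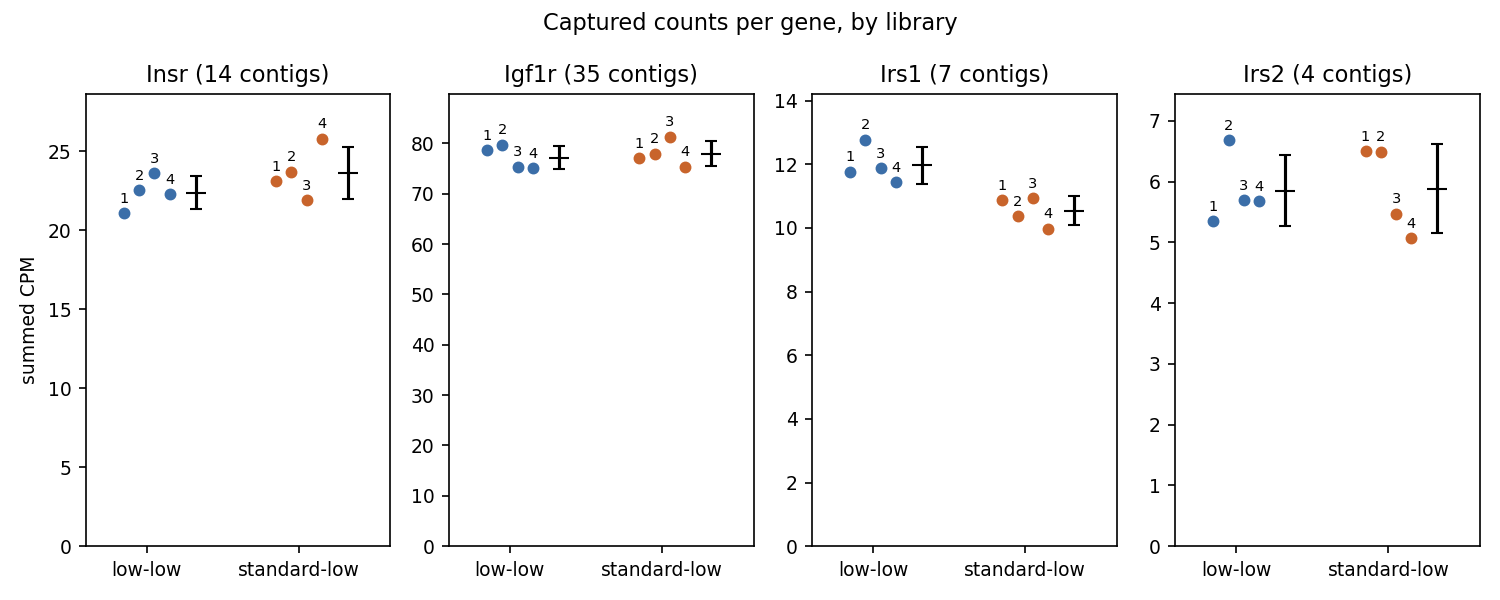
Summed CPM of Insr, Igf1r, Irs1 and Irs2 in each of the 8 libraries, low-low and standard-low side by side, with group means and SD (n = 4). Irs1 is the only gene whose groups do not overlap, with means of 11.97 and 10.5 CPM, and its edgeR adjusted p was 0.807. That separation depends on contig 2260991, placed in Irs1 by a short mouse match.

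At single contigs, none of the 60 passed an edgeR adjusted p of 0.05, against 0.0268% of all contigs, and the lowest adjusted p was 0.804. At an unadjusted p under 0.05 there were 5 of 60 (8.33%), against 5.68% of all contigs. Of these 5, 4 were higher in standard-low, against a background of 2.93%, and 1 was lower, against 2.76%. The 5 were 2 of 14 contigs in Insr and 2 of 35 in Igf1r, all higher in standard-low, and 1 of 7 in Irs1, which was lower. Groups did not overlap at 2 of 60 contigs (3.33%), against 3.24% of all contigs, and the 2 were 1 lower in standard-low, against 1.61%, and 1 higher, against 1.63%. With so few contigs the totals, 5 and 2 of 60, lie near the background. The 4 of 60 higher in standard-low lie above their background of 2.93%, and this difference was not tested. The count at an unadjusted p under 0.05 was 10 without standard-low 3 (4 lower). That was 16.7% of members, with 7.50% of all contigs at that level. It was 3 without low-low 1 or standard-low 4, and 2 without low-low 3.

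The contigs of a gene did not share a direction. Standard-low was lower at 33 and higher at 27 of the 60, with a median log2 fold change of -0.026 and a range of -0.74 to 0.81. Over all contigs the median was 0.0017 and 49.7% were below 0, and over contigs inside genes -0.017 and 52.6%. In Insr, 5 contigs were lower and 9 higher (median 0.15), and in Igf1r 20 were lower and 15 higher (median -0.029). In Irs1, 5 were lower and 2 higher (median -0.16), and in Irs2 3 were lower and 1 higher (median -0.081). Contigs of a gene share their libraries, so their number is not a number of replicates.

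**Figure D2:**
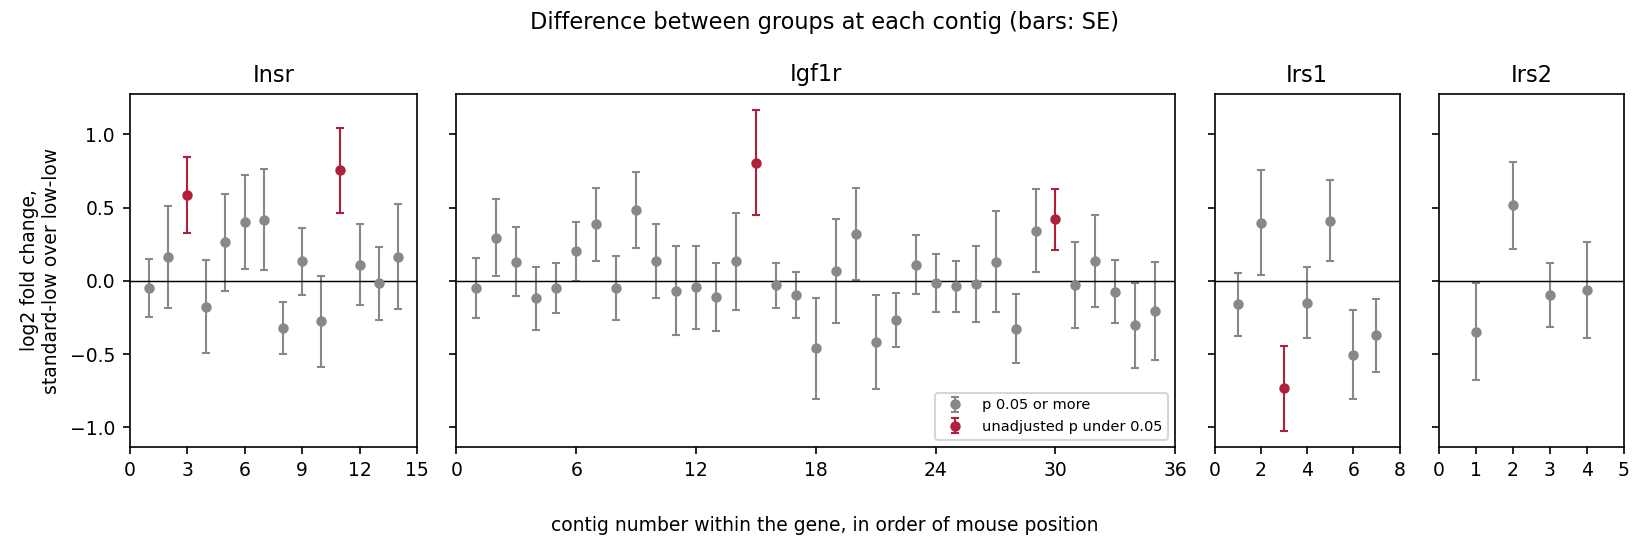
Log2 fold change of standard-low over low-low (y axis; bars are SE of the edgeR fit) at each of the 14, 35, 7 and 4 contigs of Insr, Igf1r, Irs1 and Irs2, numbered in order of mouse position. Values lie on both sides of 0 in each gene, and the 5 contigs in red had an unadjusted p under 0.05.

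In Insr, the largest difference was at contig 4089420, whose sequence is printed above and which lay 8480 bases inside the 5′ edge of the gene. It had 0.688, 0.966, 1.20 and 1.23 CPM in low-low against 1.37, 1.27, 2.07 and 2.20 in standard-low. All standard-low libraries were above all low-low libraries, standard-low 2 by the least. The log2 fold change was 0.76 ± 0.29 (SE; edgeR adjusted p = 0.804).

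Contig 664748 of Insr (chr8:3174334-3174369) lay 105248 bases from the same edge. It had 1.15, 1.78, 1.12 and 1.31 CPM in low-low against 1.80, 2.36, 1.66 and 2.28 in standard-low. Here standard-low 3 lay below low-low 2, so the groups overlapped. Its log2 fold change was 0.59 ± 0.26 (edgeR adjusted p = 0.846).

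The contig of Insr with the most counts, 2378389 (chr8:3250559-3250649), leaned the opposite way and had the largest fold change below 0 in that gene. It had 4.97, 4.61, 4.01 and 4.84 CPM in low-low against 3.59, 4.13, 2.65 and 4.39 in standard-low, and standard-low 2 and 4 lay within the low-low range. This was a log2 fold change of -0.32 ± 0.18 (edgeR adjusted p = 0.893). The contig of Insr with the most CpG, 1054582, had 2.65 CpG per 100 bases and 1.41 ± 0.391 CPM against 1.52 ± 0.404 in standard-low (n = 4, SD; log2 fold change 0.11 ± 0.28; edgeR adjusted p = 0.986). The placing of Insr contigs is weak, since 12 of 14 aligned with mouse over fewer than 100 bases, contig 664748 over 36 of its 693, and only contig 1351143 had a match of at least 100 bits, at which the log2 fold change was 0.42.

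In Igf1r, contig 3250414 (chr7:68088010-68088493) had the largest log2 fold change of the 60. It had 0.917, 0.594, 0.401 and 0.614 CPM in low-low against 0.770, 1.69, 0.8288 and 1.18 in standard-low. Standard-low 1 and 3 lay below low-low 1, and standard-low 2 was the highest. The fold change on the log2 scale was 0.81 ± 0.36 (edgeR adjusted p = 0.851), on 86 counts over all libraries.

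Contig 4173793 of Igf1r (chr7:68213086-68213840) had 2.37, 2.45, 2.17 and 2.07 CPM in low-low against 2.91, 3.96, 2.40 and 2.87 in standard-low. Only standard-low 3 lay within the low-low range. Here the log2 fold change was 0.42 ± 0.21 (edgeR adjusted p = 0.878). In the other direction, contig 1559869 (chr7:68134589-68135198) had the largest fold change below 0 in Igf1r, with 1.13 ± 0.195 CPM in low-low against 0.819 ± 0.486 in standard-low (n = 4, SD; log2 fold change -0.46 ± 0.34; edgeR adjusted p = 0.931). Without standard-low 3 it was -0.92, and without standard-low 4 it was -0.21.

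The contig of Igf1r with the most counts, 4449245 (chr7:68093202-68093374), had 6.48 ± 0.882 CPM in low-low against 6.34 ± 0.320 in standard-low (n = 4, SD; edgeR adjusted p = 0.994). It resembled 7598 other contigs of the table at 80% identity or more, so reads of repeat copies may be among its counts. The contig with the highest level per kilobase, 427646, had 4.05, 4.31, 4.09 and 3.69 CPM in low-low against 2.82, 2.53, 4.39 and 3.63 in standard-low. Its standard-low values spread above and below those of low-low, with standard-low 1 and 2 the lowest of all (log2 fold change -0.27 ± 0.19; edgeR adjusted p = 0.921).

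In Irs1, contig 2260991 lay 13919 bases inside the 5′ edge and had 1.99, 1.86, 1.53 and 1.38 CPM in low-low against 0.941, 1.27, 1.24 and 0.592 in standard-low. The groups did not overlap, and standard-low 4 was the lowest. Standard-low differed by a log2 fold change of -0.74 ± 0.29 (edgeR adjusted p = 0.820). Only 32 of its 491 bases aligned with mouse, so its place in Irs1 rests on a short match.

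The next lowest p in Irs1 was at contig 1344000, printed above, with 1.83, 1.19, 1.45 and 1.54 CPM in low-low against 1.11, 0.759, 0.580 and 1.78 in standard-low. Standard-low 4 lay near the top of the low-low range and the other standard-low libraries below it. At this contig the log2 fold change was -0.50 ± 0.30 (edgeR adjusted p = 0.903). Its neighbour 2895126 (chr1:82288479-82288722) had the largest fold change above 0 in Irs1, 1.25 ± 0.152 CPM in low-low against 1.66 ± 0.459 in standard-low (n = 4, SD; log2 fold change 0.41 ± 0.28; edgeR adjusted p = 0.917).

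The contig of Irs1 with the most counts, 4065924 (chr1:82237109-82237674), lay toward the 3′ end and had 2.59 ± 0.343 CPM in low-low against 2.32 ± 0.425 in standard-low (n = 4, SD; edgeR adjusted p = 0.966). Its contig with the most CpG, 2431865 (chr1:82289496-82289959), had 2.13 ± 0.428 CPM against 1.64 ± 0.519 (log2 fold change -0.37 ± 0.25; edgeR adjusted p = 0.916). The Irs1 sums were thus made up of 5 contigs with a fold change below 0 and 2 above it, none of which passed the test.

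In Irs2, contig 4609394 (chr8:10992371-10992906) had 1.30, 1.49, 1.04 and 0.691 CPM in low-low against 1.11, 2.87, 1.16 and 1.35 in standard-low. Its log2 fold change, 0.51 ± 0.30 (edgeR adjusted p = 0.897), was the largest above 0 in the gene, and standard-low 2 alone lay above the low-low range. Without standard-low 2 it was 0.092. Contig 976206 (chr8:10988692-10988791) had the largest fold change below 0, with 1.21 ± 0.259 CPM in low-low against 0.954 ± 0.534 in standard-low (n = 4, SD; log2 fold change -0.35 ± 0.33; edgeR adjusted p = 0.951). Without standard-low 1 it was -0.73, and without standard-low 3 it was -0.062.

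The contig of Irs2 with the most counts, 269165 (chr8:11004449-11005156), had 2.48 ± 0.121 CPM in low-low against 2.31 ± 0.603 in standard-low (n = 4, SD; edgeR adjusted p = 0.983). The one with the most CpG, 465280, printed above, had 1.04 ± 0.219 against 0.992 ± 0.327 (n = 4, SD; edgeR adjusted p = 0.994). Neither group stood above the other at either contig.

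**Figure D3:**
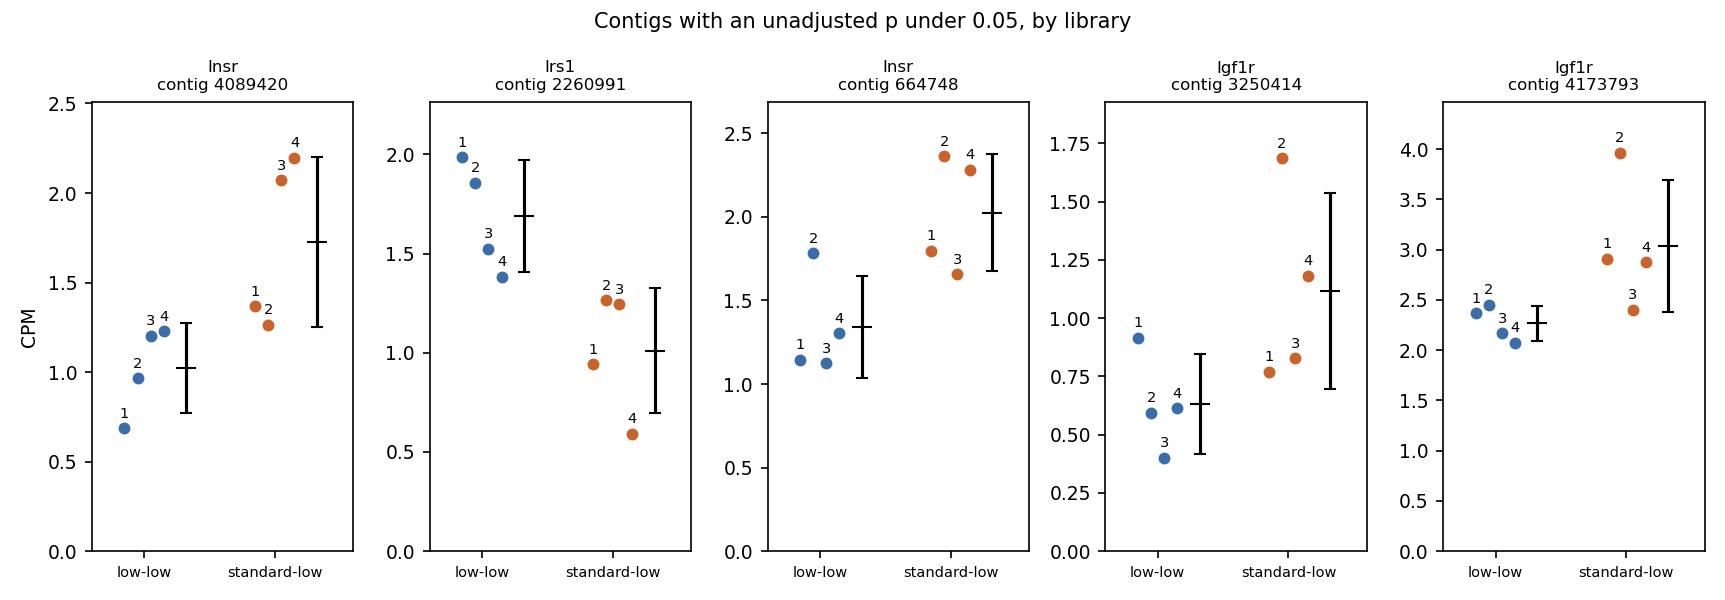
CPM in each of the 8 libraries at the 5 contigs with an unadjusted edgeR p under 0.05, with group means and SD (n = 4). The groups do not overlap at Insr contig 4089420, where standard-low is higher, and at Irs1 contig 2260991, where it is lower, and none of the 5 passed after adjustment (lowest adjusted p 0.804).

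The Irs genes differed from the receptor genes in their sequence. A stretch with no stop codon in at least 1 frame over at least 95% of the contig was used as a mark of coding sequence, since the table gives no exons. Either strand was searched, and it held for 4 of 7 contigs in Irs1, 2 of 4 in Irs2, 4 of 35 in Igf1r and 0 of 14 in Insr. On the strand of the gene in mouse it held for the same 4 in Irs1, the same 2 in Irs2, and 1 of the 4 in Igf1r, contig 885312. A contig that holds an exon beside intron can miss this cut, so these are not counts of coding contigs. On the gene strand, Igf1r contig 427646 was open over 86.2% and Insr contig 4656649 over 94.1%. The 6 Irs contigs that passed the cut are 4622248, 2895126, 1344000 and 2431865, which together spanned chr1:82287917-82289959, and 269165 and 465280 in Irs2. They had 4.45 to 7.98 CpG per 100 bases (median 5.29), against a median of 2.26 over contigs inside genes. Over all contigs of a gene the median was 4.45 in Irs1, 3.85 in Irs2, 2.20 in Insr and 2.09 in Igf1r.

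The captured level of these 6 contigs was not higher in proportion to their CpG. Per kilobase it was 3.80 CPM (median) against 3.22 over the other 54 contigs of the members, and per CpG it was 0.0718 CPM against 0.152. Contigs inside genes with 4 to 8 CpG per 100 bases, 6667 in number, had a median of 4.58 CPM per kb and 0.0968 CPM per CpG, so a lower level per CpG was also seen there. Irs1 contig 2431865, with 7.98 CpG per 100 bases, had 0.0496 CPM per CpG, and 0.462% of contigs inside genes had a lower value. Irs2 contig 465280 had 0.0563 CPM per CpG, above that of 0.848% of contigs inside genes. The highest of the 6 was Irs1 contig 2895126, with 5.90 CPM per kb and 0.132 CPM per CpG, above that of 33.9% of contigs inside genes. Low values per CpG were not limited to these 6. Among the other Irs contigs, 1962585, 4609394 and 976206 had 0.0582, 0.0688 and 0.0773 CPM per CpG, whereas 4065924 and 2260991 had 0.144 and 0.193.

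The CpG-dense contigs of Igf1r did not share a level per CpG. Contig 427646, with 4.10 CpG per 100 bases, had 0.194 CPM per CpG, above that of 77.4% of contigs inside genes. Contig 885312, with 4.34 CpG per 100 bases, had 0.0879 CPM per CpG, above that of 6.87%. At the 3′ end of Igf1r, contig 1715612 (chr7:68226305-68226566), 214 bases from the edge, had 6.02 CpG per 100 bases and 0.0622 CPM per CpG. Its CPM was 1.001 ± 0.0884 in low-low against 0.864 ± 0.0804 in standard-low (n = 4, SD; log2 fold change -0.21 ± 0.33; edgeR adjusted p = 0.974). Insr had no contig with 4 CpG per 100 bases or more, Igf1r had 3, Irs1 4 and Irs2 2.

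Across the 60 contigs, CpG per 100 bases and CPM per kb had a Spearman rho of 0.527, and CpG per 100 bases and CPM per CpG a rho of -0.348. Over the 125082 contigs inside genes these were 0.514 and -0.290. The points share their libraries and both axes share the contig's length or its CpG, so the values are a description. No contig had a summed count below 81, which also bounds the low levels per kb and per CpG. The members followed the pattern of contigs inside genes in general.

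**Figure D4:**
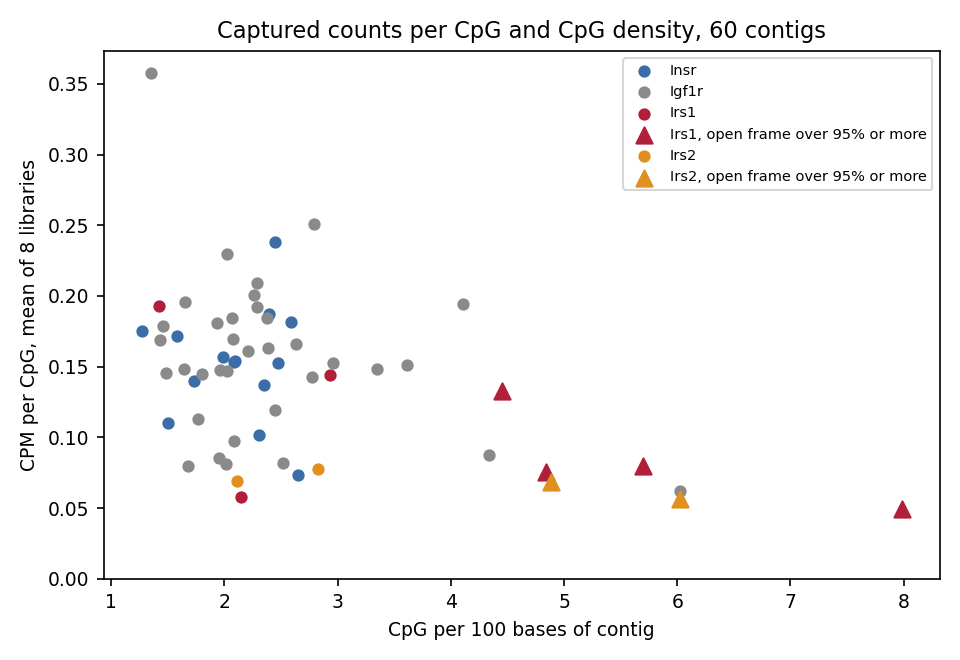
Captured level of the 60 contigs against CpG per 100 bases (x axis), as CPM per CpG (y axis, mean of 8 libraries), coloured by gene, with triangles for the 6 stop-free contigs of Irs1 and Irs2. The triangles lie to the right, at a median of 5.29 CpG per 100 bases and 0.0718 CPM per CpG. They run from 0.0496 to 0.132 CPM per CpG, the highest being Irs1 contig 2895126.

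Summed over the stop-free contigs of Irs1, CPM was 6.11, 7.73, 7.30 and 6.60 in low-low against 6.67, 4.89, 6.63 and 6.68 in standard-low. These values overlapped, with standard-low 2 the lowest. The other 3 contigs of Irs1 summed to 5.65, 5.05, 4.58 and 4.84 CPM in low-low against 4.19, 5.48, 4.31 and 3.30 in standard-low, which overlapped as well. Standard-low 2 was below all low-low libraries in the first set and within their range in the second.

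The stop-free contigs of Irs2 summed to 3.21, 3.79, 3.29 and 3.76 CPM in low-low against 3.77, 2.78, 3.98 and 2.70 in standard-low. The other 2 summed to 2.14, 2.90, 2.41 and 1.92 in low-low against 2.74, 3.71, 1.49 and 2.37 in standard-low. In both sets the standard-low libraries spread beyond the low-low ones on both sides.

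By position, the contigs of the table left the 5′ ends of the receptor genes uncovered. In mouse, Igf1r is read in the forward direction and Insr, Irs1 and Irs2 in reverse. Gene edges were recovered from the distances that the table gives for contigs outside them. The contig nearest the 5′ edge lay 16231 bases inside Igf1r, 3299 inside Insr and 1457 inside Irs1. Outside that edge, the nearest contig assigned to the gene lay 5975 bases away for Igf1r, 2844 for Insr and 11800 for Irs1. The promoters were therefore not measured here by contigs assigned to these genes, and what unmatched contigs hold was not tested. The 5′ edge of Irs2 was not recovered from the distances.

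Within Igf1r, a gene of 273.922 kb by these edges, contigs followed each other from 16231 bases after the 5′ edge to 214 bases before the 3′ edge. In Irs1, of 58.316 kb, 4 of 7 contigs lay within 3 kb of the 5′ edge. Contigs within 2 kb outside the genes, where the rule ends, all lay on the 3′ side. Igf1r contig 2643996 at 255 bases had 3.46 ± 0.365 CPM in low-low against 3.50 ± 0.548 in standard-low (SD, n = 4). Irs2 contig 806462 at 35 bases had 2.15 ± 0.346 and 2.13 ± 0.268, and Irs2 contig 3851433 at 1678 bases had 1.78 ± 0.307 and 1.37 ± 0.0573. Its 4 standard-low libraries, 1.33 to 1.45 CPM, all lay below its 4 low-low libraries, 1.53 to 2.23 (log2 fold change -0.38). Of all contigs, 1.61% separated in that direction. Adding the contigs within 2 kb left the number with an unadjusted edgeR p under 0.05 at 5, and none passed the adjusted threshold.

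The other genes of insulin and IGF signalling were read as gene sums from a list of 71 genes, of which 66 had a contig inside, and none was called. Ins1, Irs3, Irs4, Socs1 and Ceacam1 had none. Standard-low was lower for 42 and higher for 24, with a median log2 fold change of -0.036 against -0.030 over all gene sums, of which 58.6% were below 0. At an unadjusted p under 0.05 there were 4, all lower in standard-low, against 4.32% of all gene sums lower and 1.71% higher at that level. There were 17 without standard-low 3, when 2802 of all 19098 gene sums were at that level against 1151 with all libraries, and 2 without standard-low 2, when 946 were. By role, lower and higher counts were 1 and 2 for ligands, 2 and 0 for related receptors, 7 and 7 for other substrates and adaptors, 7 and 4 for inhibitors and phosphatases, 16 and 9 for kinases and effectors, 7 and 1 for IGF-binding proteins, and 2 and 1 for trafficking genes.

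Among ligands, Ins2, an insulin gene, had 3.82 ± 0.819 CPM in low-low against 3.33 ± 0.727 in standard-low (SD, n = 4), Igf1 had 9.51 ± 0.329 and 9.55 ± 1.35, and Igf2 had 7.21 ± 0.775 and 7.38 ± 1.02. No ligand passed the test (edgeR adjusted p of at least 0.871). The lowest p of the list was that of Igfbp3, which encodes a carrier of insulin-like growth factors in blood, with 6.34, 6.61, 7.39 and 7.14 CPM in low-low against 4.54, 4.98, 5.30 and 5.58 in standard-low. All standard-low values lay below all low-low values (log2 fold change -0.43 ± 0.13; edgeR adjusted p = 0.807).

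Foxo4, a transcription factor held in check by Akt, had 0.993, 1.11, 0.963 and 1.15 CPM in low-low against 0.513, 0.759, 0.414 and 0.761 in standard-low, on 1 contig. These groups did not overlap either (log2 fold change -0.78 ± 0.32; edgeR adjusted p = 0.807). The kinase gene Akt2 had 39.0, 39.0, 40.4 and 37.9 CPM in low-low against 36.4, 26.5, 39.8 and 30.4 in standard-low (edgeR adjusted p = 0.807).

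Akt1 had 24.3, 23.9, 23.0 and 25.2 CPM in low-low against 22.7, 13.7, 23.8 and 20.5 in standard-low, and the adaptor gene Sh2b2 had 18.5, 20.9, 18.5 and 20.2 against 17.5, 10.8, 19.0 and 18.0 (edgeR adjusted p = 0.807 for both). In Akt1, Akt2 and Sh2b2 standard-low 2 was the lowest library and standard-low 3 the highest of its group. The share of counts in CpG-dense contigs was also lowest in standard-low 2 and highest in standard-low 3, and its part in these values was not tested.

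The summed CPM of the 66 genes was 1442, 1480, 1484 and 1461 in low-low against 1435, 1256, 1560 and 1391 in standard-low, whereas that of the 4 members was 117, 122, 117 and 114 in low-low against 117, 119, 119.6 and 116 in standard-low. Standard-low 2 and 3 were thus the extremes of the longer list but not of the members.

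Genes whose summed log2 CPM followed each member most closely over the 8 libraries were sought among 13147 genes with a mean count of at least 50. For Insr they were Stx2, Kcnq5 and Utp15 (Pearson r 0.964, 0.941 and 0.933), and for Igf1r Ccdc90a, Rps19-ps6 and 4831426I19Rik (0.967, 0.947 and 0.937). For Irs1 they were Ctcf, Slc9a4 and Pogk (0.969, 0.964 and 0.960), and for Irs2 Pnmal1, Zfp35 and Gm13232 (0.926, 0.926 and 0.920). These are the highest of many correlations over the same 8 libraries and are given as a description.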

How the data were processed

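The analysis began from a table that the authors deposited, with whole-number counts of reads per contig for 8 libraries. The submitters' processing notes name BWA and FastQC. Their versions, the assembler, how repeats were treated and the mouse build were not given in the sources used here. Contig names hold the mouse match, nearest gene and distance, per the file headers and values. The header separates library names by spaces and the values by tabs, so columns were read in header order, and values per library rest on that order. The lowest summed count was 81, so a contig with less is not in the table.

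Differences at contigs were tested in R 4.3.3 by edgeR 4.0.16 (TMM factors, quasi-likelihood test, two-sided, all 8 libraries, no covariate) with Benjamini-Hochberg adjustment over all 548060 contigs and a threshold of 0.05. Requiring 10 counts per library on average removed 0 contigs. Counts over contigs at distance 0 were summed per gene and tested with the same factors over 19098 genes. SE is the size of the log2 fold change divided by the square root of F, with 95% intervals from the t distribution. Groups came from the labels. The members, gene lists, marker lists and tests were chosen with earlier results of these data known.

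Named contigs are, per gene, those with the most counts, the 2 lowest p, the largest fold change in each direction, the most CpG per 100 bases, or groups that do not overlap. Contigs 427646, 4622248, 885312, 1351143 and 4656649, those just outside the genes, and marker genes were named after their values were seen. From the pathway list the 5 genes of lowest p and the ligands are named, and for likeness the 3 genes with the highest correlation (prior count 2). Similar contigs were found with BLAST 2.17.0 (80% identity, e-value 1e-10). The library total was compared by permutation with scipy 1.17.1. The edgeR script was tested on simulated data. Alternatives were DESeq2 1.42.0, limma 3.58.1 voom, other scalings, at least 20 counts on average, matches of at least 100 bits, contigs within 2 kb, a replicate block and leaving out each library.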

Additional observations from a re-analysis of the deposited data

Results flagged for a closer look

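At Irs2 contig 4609394, standard-low 2 had 2.87 CPM, while the other standard-low libraries had 1.11 to 1.35. The gap to its neighbour exceeded the critical value of Dixon's test for 4 samples. This was the only such value among 44 groups tested, and chance gives about 1 in 20 groups.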

How the results depend on the processing

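Under the alternatives run (DESeq2, limma voom, 2 other scalings, a stricter count filter, a replicate block, matches of at least 100 bits, contigs within 2 kb and each library left out), no contig or gene sum of the 4 members passed the threshold, and the pathway and marker lists held 0 calls under all of these but the match and 2 kb alternatives, which were not run for them. The number of member contigs with an unadjusted p under 0.05, 5 in edgeR, was 2 with DESeq2 (3.33%, against 2.28% of all contigs), 3 with limma voom (5%, against 5.56%), 2 with a mean of at least 20 counts (6.90% of the 29 contigs tested, against 5.80%), 2 with matches of at least 100 bits (41 contigs) and 2 to 10 with 1 library left out.

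The Irs1 sum kept its sign, with a log2 fold change of -0.20 to -0.11, the latter with matches of at least 100 bits. Its edgeR adjusted p was 0.395 or more, lowest without standard-low 3. The Insr sum was 0.42 with matches of at least 100 bits (1 contig) and 0.034 to 0.11 with 1 library left out. Sums near 0 changed sign. Irs2 had -0.062 with contigs within 2 kb, which added contigs 3851433 (-0.38) and 806462 (-0.016). Irs2 ran from -0.045 to 0.077 and Igf1r from -0.0078 to 0.029 with 1 library left out, for which the cause was not tested. With 1 library left out, 4 named contigs near 0 also changed sign: 4449245 (-0.10 to 0.032), 1054582 (-0.057 to 0.29), 269165 (-0.26 to 0.043) and 465280 (-0.26 to 0.12).

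Libraries with the same replicate number had correlations of -0.018 to 0.15 in their deviations from the group means, and 3 of 8 libraries correlated best with their own number, so the numbers were not taken as pairs. With the replicate block, 4 member contigs had an unadjusted p under 0.05 and the Irs1 log2 fold change was -0.18 (edgeR adjusted p = 0.743). Over the whole table, 147 contigs and 1 gene sum were called in edgeR, 206 and 3 with the replicate block, 32 and 2 with DESeq2, 50 and 0 with limma voom, 65 and 1 with the stricter filter, and 68 to 207 and 0 to 30 with 1 library left out. Pathway genes with an unadjusted p under 0.05, 4 in edgeR, were 10 with the replicate block (1347 of all gene sums against 1151), 8 with limma voom (1247) and 2 with DESeq2 (574). Member contigs held 81 to 638 counts over 8 libraries, and the smallest difference that this depth and spread could show was not tested.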

Other observations

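Captured DNA per CpG differed widely among contigs of the 4 genes. Igf1r contig 4516616 (chr7:67991461-67991641) had 1.35 CpG per 100 bases and 0.358 CPM per CpG, above that of 99.2% of contigs inside genes and the highest of the 60. Irs1 contig 1962585 (chr1:82240269-82240576), with 2.15 CpG per 100 bases, had 0.0582 CPM per CpG, and 0.983% of contigs inside genes had a lower value. Its level per kilobase, 1.25 CPM per kb, was the lowest of the 60. Both contigs were chosen after their values were seen.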
